A study of Rattus norvegicus with 20 samples.

Results

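The genes described here make, package, take up and break down the inhibitory transmitter GABA, together with homeobox genes of GABA-producing forebrain interneurons. They were the synthetic enzymes Gad1 and Gad2, the vesicular transporter Slc32a1, the plasma membrane transporter Slc6a11, the degrading enzyme Abat, and the transcription factor genes Dlx1 and Lhx6. Every probe set that the platform annotation gave to one of these genes and to no other gene was taken, whatever its signal. That gave 9 probe sets for 6 of the 7 genes, out of 31042 probe sets that are not controls and 14217 genes with a probe set of their own. Gad1 had 2 probe sets (1368344_at and 1370760_a_at), Abat had 3 (1369799_at, 1375321_at and 1391365_at), and Gad2 (1369462_at), Slc32a1 (1387380_at), Slc6a11 (1369715_at) and Dlx1 (1392064_at) had 1 each. Lhx6 matched no probe set and is not analysed here.

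RNA came from tissue labelled as brain cortex, taken from 20 Sprague Dawley rats. All were male, 20 weeks of age and between 250 and 300 g in weight. In the isoflurane group, 10 rats breathed 2% isoflurane, a volatile anaesthetic, in oxygen for 15 minutes, which was 1.4 MAC, the unit of anaesthetic potency. In the oxygen group, 10 rats breathed oxygen alone for the same time, and all rats recovered for 6 hours before the brain was taken. Each rat gave 1 array of 1 dye, so the p-values below rest on the spread between arrays of different rats. That spread includes any differences in the tissue taken and in RNA quality. Rats are named by gas and replicate number, as in oxygen 1.

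GABA is the main inhibitory transmitter of the adult brain, and it is made from glutamate by glutamate decarboxylase. One isoform, encoded by Gad1, fills the cell body and supplies most basal GABA, and the other, encoded by Gad2, is concentrated at nerve endings. The product is loaded into vesicles by the transporter encoded by Slc32a1, removed from the extracellular space by transporters that include the glial one encoded by Slc6a11, and degraded in mitochondria by the transaminase encoded by Abat. In the cortex Gad1, Gad2 and Slc32a1 mark interneurons, most of which come from ventral progenitors that express Dlx1. In the cerebellum the GABA-producing cells are Purkinje, basket, stellate and Golgi cells. Isoflurane is known to strengthen currents through GABA-A receptors.

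The promoters of the 3 genes that carry the main patterns are shown for reference. Gad2 had the largest difference between the gases among the tested probe sets of these genes, Slc32a1 ran opposite to it on some of the arrays, and Dlx1 lay apart between the sets of arrays described below. Each window holds the 250 bases before the annotated start of the gene in the rat assembly GRCr8, from RefSeq, with every CG dinucleotide in capitals.
Gad2, chr17:89671468-89671717, + strand: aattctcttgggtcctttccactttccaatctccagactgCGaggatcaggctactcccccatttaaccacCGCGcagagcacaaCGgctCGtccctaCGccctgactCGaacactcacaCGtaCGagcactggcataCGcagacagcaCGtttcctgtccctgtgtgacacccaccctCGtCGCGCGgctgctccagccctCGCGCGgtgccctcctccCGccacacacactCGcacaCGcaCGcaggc
Slc32a1, chr3:167686995-167687244, + strand: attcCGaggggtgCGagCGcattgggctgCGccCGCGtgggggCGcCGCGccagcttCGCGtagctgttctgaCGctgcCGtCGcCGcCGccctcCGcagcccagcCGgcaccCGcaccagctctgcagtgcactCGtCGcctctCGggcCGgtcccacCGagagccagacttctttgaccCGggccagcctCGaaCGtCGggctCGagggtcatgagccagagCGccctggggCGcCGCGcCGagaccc
Dlx1, chr3:76763614-76763863, + strand: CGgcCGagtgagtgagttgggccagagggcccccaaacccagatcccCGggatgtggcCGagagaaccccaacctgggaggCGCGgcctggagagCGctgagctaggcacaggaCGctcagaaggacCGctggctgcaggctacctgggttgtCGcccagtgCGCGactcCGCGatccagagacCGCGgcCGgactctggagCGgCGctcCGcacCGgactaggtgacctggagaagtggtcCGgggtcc
All 3 windows were rich in CG. The Gad2 window was 62% G or C with 22 CG dinucleotides, the Slc32a1 window 73.6% with 34, and the Dlx1 window 69.2% with 22. The medians over 33469 rat promoter windows of the same length were 51.2% and 5. TAATTA, a core that homeodomain proteins bind, was in none of the 3 windows on either strand and in 4.86% of all windows. GGGCGG, the core of a GC box, was found on either strand once in the Slc32a1 window, from position -163 counted from the gene start, and in neither of the other two, against 30.5% of all windows. The array values name no genome build, so these coordinates belong to the assembly alone.

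The 20 arrays fell into sets by tissue-specific genes, which the labels do not describe. The signal of Pcp2, a Purkinje cell gene, was above 12 in log2 terms on 11 arrays, with a lowest linear signal of 12436, and below it on 9, with a highest of 1632. Here they are called Pcp2-high arrays (oxygen 5 to 10 and isoflurane 1, 3, 7, 8 and 9) and Pcp2-low arrays (oxygen 1 to 4 and isoflurane 2, 4, 5, 6 and 10). Gabra6 of cerebellar granule cells had log2 values of 13.40 to 14.10 on the Pcp2-high arrays, and Fezf2 of deep-layer cortical neurons was at most 6.96 there and at least 8.69 on the others. The tissue label therefore goes against the markers on 11 of the 20 arrays. Within the Pcp2-low arrays, isoflurane 2, 4, 5 and 6 stood apart. Their Pcp2 signal was 22.0 to 61.0, against 198 to 439 on the 4 oxygen arrays and 1632 on isoflurane 10. Their 3'/5' log2 signal ratio, which describes how evenly a transcript was copied along its length, was 2.30 to 2.86 for beta-actin and -0.75 to -0.27 for the control named hexokinase, against 1.21 to 1.98 and 1.25 to 2.47 on the other 5 Pcp2-low arrays. Since 4 of the 5 isoflurane arrays of this set are these, each difference called below is also given without them. The number of arrays limits the precision, and arrays were scaled alike, with trimmed means of 500.1 to 500.2.

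Values below are log2 of the deposited signal, with values under 1 raised to 1. A probe set was tested if its mean was above the 40th percentile of all probe sets, 6.62, which kept 18625 probe sets. Of the 9 GABA gene probe sets 6 passed, from 5 genes. Slc6a11 and the dimmer Abat probe sets 1375321_at and 1391365_at did not, and Dlx1 passed, at a mean of 6.93, through the Pcp2-low arrays. Isoflurane was compared with oxygen by limma over all 20 arrays, with the set as a block, and then among the arrays of each set alone. A further limma test, of the interaction, compared the isoflurane effect on Pcp2-low arrays with that on Pcp2-high arrays. A probe set is called where its Benjamini-Hochberg adjusted p is under 0.05. Array sets were defined by a measured gene, so differences between them are described without a test, and in whole tissue fewer cells of a type and less RNA per cell cannot be told apart.

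**Figure D1:**
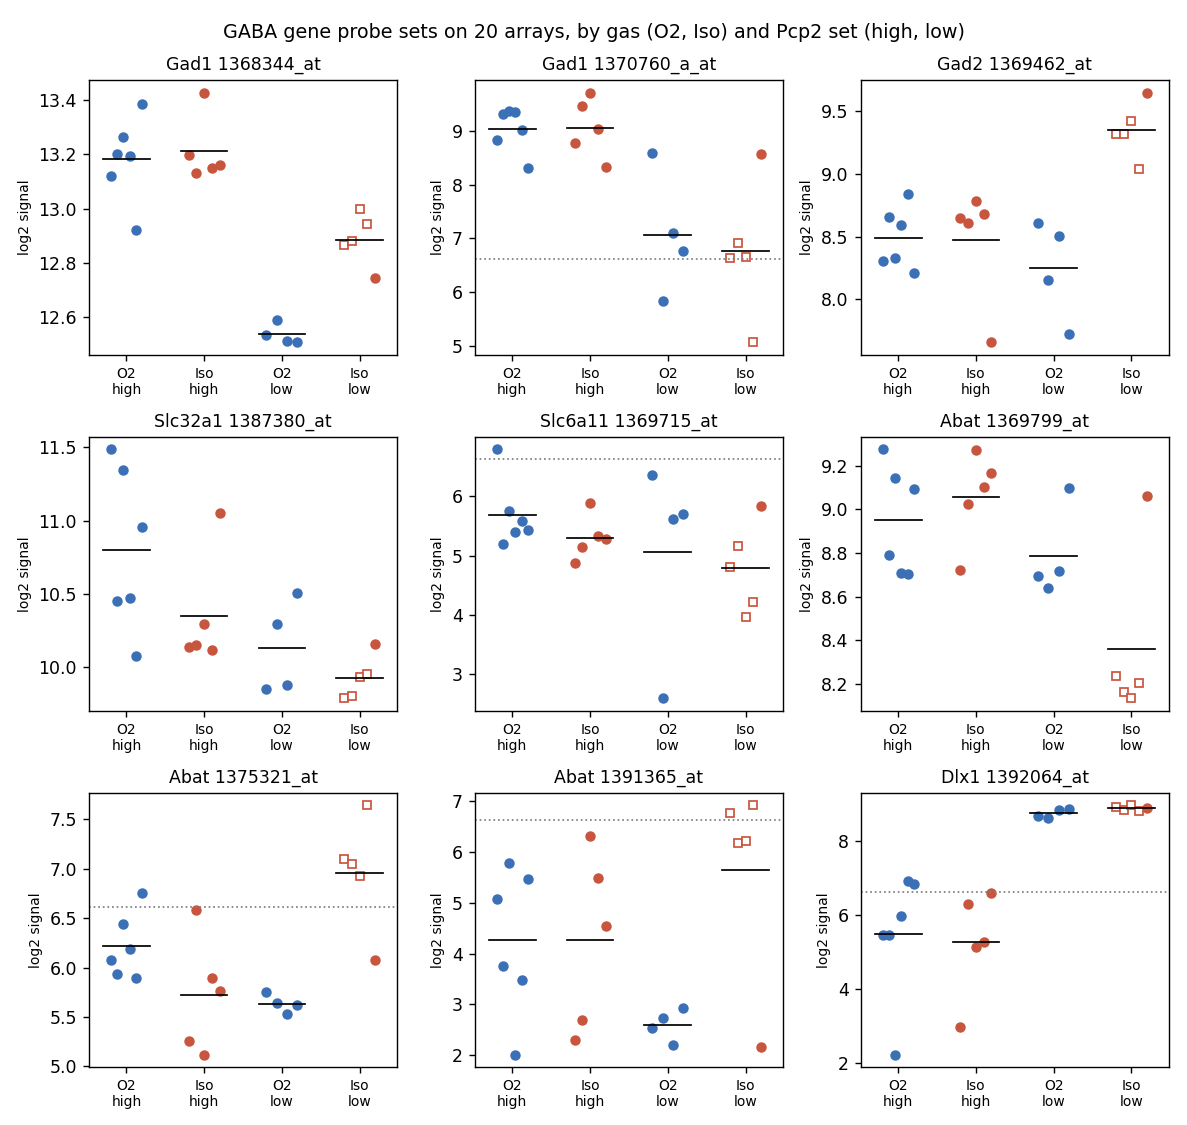
Log2 signal of each of the 9 GABA gene probe sets (vertical axes, each with its own range) on the 20 arrays, in columns by gas and array set, with points in replicate order. Blue points are oxygen arrays, red points isoflurane arrays, open squares isoflurane 2, 4, 5 and 6, horizontal bars group means, and the dotted line, where it falls within the range, is the filter at 6.62. The 5 isoflurane Pcp2-low arrays sit above the 4 oxygen Pcp2-low arrays for Gad1 1368344_at and Gad2, and Dlx1 separates the Pcp2-low from the Pcp2-high arrays in both gases.

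Among the Pcp2-low arrays the signal of both glutamate decarboxylase genes was higher after isoflurane, by 1.10 on the log2 scale for Gad2 and by 0.35 for Gad1 probe set 1368344_at. The other Gad1 probe set, 1370760_a_at, was at -0.30 and not called (limma, adjusted p = 0.773). No probe set of the other genes was called there among those tested. Of all tested probe sets, 18.6% were called among Pcp2-low arrays and 0% among Pcp2-high arrays. On Pcp2-high arrays neither enzyme gene was therefore called, like every other probe set. With the array set as a block over all 20 arrays, none of the 6 probe sets was called, while 7.37% of all probe sets were.

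Gad2, the nerve-ending isoform, gave 8.61, 8.15, 8.51 and 7.72 on oxygen 1 to 4. Isoflurane 2, 4, 5, 6 and 10 gave 9.32, 9.32, 9.42, 9.04 and 9.65. The ranges did not overlap, every isoflurane array lying above every oxygen array, and isoflurane 10 had the highest Gad2 signal of all 20 arrays. For scale, 6.7% of tested probe sets had all 5 of these isoflurane arrays above the 4 oxygen arrays. Means were 8.25 ± 0.40 (SD, n = 4) and 9.35 ± 0.22 (SD, n = 5), a ratio of geometric means of 2.15. The difference was 1.10 ± 0.19 SE in limma (adjusted p = 0.00827, 95% interval 0.69 to 1.52). It was one of 2087 probe sets called higher among the Pcp2-low arrays, 11.2% of those tested, and 18.6% were called in either direction.

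On Pcp2-high arrays Gad2 gave 8.65, 8.61, 8.78, 8.68 and 7.66 on isoflurane 1, 3, 7, 8 and 9. The 6 oxygen arrays ran from 8.21 to 8.84 with a median of 8.46. These ranges overlapped, and isoflurane 9 was the lowest Gad2 value of all 20 arrays. The difference was -0.01 ± 0.20 SE (limma, adjusted p = 0.975), with an interval from -0.44 to 0.41. No probe set was called on these arrays by limma, 0% of 18625, although 2376 had an unadjusted p under 0.05. The isoflurane effect on Gad2 was 1.12 ± 0.29 SE larger on Pcp2-low than on Pcp2-high arrays in the interaction test (limma, adjusted p = 0.0199), a test that called 10.2% of probe sets. With all 20 arrays and the set as a block the Gad2 difference was 0.49 ± 0.19 SE (limma, adjusted p = 0.102). Without isoflurane 9 it was 0.63 (limma, adjusted p = 0.0103), in a fit that called 2938 of 18625 probe sets, against 1372 with all arrays.

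The Gad2 calls were lost without isoflurane 2, 4, 5 and 6. Only 1 isoflurane Pcp2-low array is then left, so the estimates, which were not smaller, cannot show whether the difference came from those 4 arrays. Without them, the single remaining isoflurane Pcp2-low array, assumed to vary like the oxygen arrays, was 1.40 ± 0.35 SE above oxygen (limma, adjusted p = 0.902), in a comparison that called 0 probe sets of any gene, with 876 at an unadjusted p under 0.05. The interaction was then 1.42 (adjusted p = 0.856). With the GAPDH ratio as a covariate the Gad2 difference among Pcp2-low arrays was 1.03 ± 0.30 SE (limma, adjusted p = 0.358), and no probe set was called, with 2249 at an unadjusted p under 0.05. With that covariate the interaction remained called for Gad2, at 1.01 ± 0.23 SE (limma, adjusted p = 0.0116), and the blocked difference was 0.21 (adjusted p = 0.607). The share of all probe sets called in that interaction fit is not given here. The GAPDH ratio was 0.24 to 0.33 on isoflurane 2, 4, 5 and 6 and 0.30 to 0.48 on oxygen 1 to 4. Those ranges overlapped, and the beta-actin and hexokinase ratios, in which the 4 isoflurane arrays stood apart, were not used as covariates.

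Gad1, the isoform of the cell body, was measured by a bright probe set, 1368344_at, and a dimmer one, 1370760_a_at. The bright one gave 12.53, 12.59, 12.51 and 12.51 on oxygen 1 to 4 and 12.86, 12.88, 13.00, 12.94 and 12.74 on isoflurane 2, 4, 5, 6 and 10. Every isoflurane array was above every oxygen array, as for 6.7% of tested probe sets, isoflurane 10 being the lowest of the 5. The Gad1 difference was 0.35 ± 0.08 SE (limma, adjusted p = 0.0158, 95% interval 0.18 to 0.53), a ratio of geometric means of 1.28. Of all tested probe sets, 11.2% were called higher among these arrays and 18.6% in either direction. When each array was centred on its median, the Gad1 difference was 0.14 and no longer called (adjusted p = 0.358), since centring lowered the median change of all probe sets by 0.21 in this set. It was not called either without isoflurane 2, 4, 5 and 6 (0.21, adjusted p = 0.902) or with the GAPDH ratio as a covariate (0.38, adjusted p = 0.366).

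On Pcp2-high arrays the same Gad1 probe set gave 13.20, 13.13, 13.43, 13.15 and 13.16 after isoflurane, and 12.92 to 13.39 with a median of 13.20 after oxygen. The ranges overlapped. The limma difference was 0.03 ± 0.09 SE (adjusted p = 0.881), with an interval from -0.16 to 0.22. The interaction was 0.32 ± 0.12 SE and was not called (adjusted p = 0.0859), so the isoflurane effect on Gad1 was not shown to differ between the sets. With the set as a block the difference was 0.18 ± 0.07 SE (limma, adjusted p = 0.102).

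The Gad1 level also differed between the sets. Within oxygen the 6 Pcp2-high arrays, at 12.92 to 13.39, all lay above the 4 Pcp2-low arrays, at 12.51 to 12.59, a difference of means of 0.65. Within isoflurane the Pcp2-high arrays, at 13.13 to 13.43, all lay above the Pcp2-low arrays, at 12.74 to 13.00, a difference of 0.33. Of all tested probe sets, 18.2% were higher without overlap on Pcp2-high arrays within oxygen and 19.8% within isoflurane. In order, the Gad1 means were 12.53 ± 0.04 (SD, n = 4) for oxygen Pcp2-low, 12.88 ± 0.10 (SD, n = 5) for isoflurane Pcp2-low, 13.18 ± 0.16 (SD, n = 6) for oxygen Pcp2-high and 13.21 ± 0.12 (SD, n = 5) for isoflurane Pcp2-high, and the last 2 lay within their spread.

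The dimmer Gad1 probe set, 1370760_a_at, gave 8.58, 5.82, 7.10 and 6.76 on oxygen 1 to 4 and 6.62, 6.90, 6.65, 5.06 and 8.57 on isoflurane 2, 4, 5, 6 and 10. Oxygen 1 and isoflurane 10, which also had the lowest beta-actin ratios of the 9, were the high arrays of each gas. Pcp2-high arrays ran from 8.30 to 9.38 in oxygen and from 8.33 to 9.71 in isoflurane, so the sets overlapped only through those 2 arrays. The isoflurane difference among Pcp2-low arrays was -0.30 ± 0.66 SE (limma, adjusted p = 0.773, 95% interval -1.75 to 1.14), which includes the change of the bright probe set.

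Gad2 ordered the groups in another way. The set difference was small in oxygen, where Pcp2-high minus Pcp2-low was 0.24 with overlapping ranges. In isoflurane it was -0.88, with every Pcp2-high array below every Pcp2-low array, as for 16.2% of probe sets. Oxygen Pcp2-low, isoflurane Pcp2-high and oxygen Pcp2-high had means of 8.25 ± 0.40 (SD, n = 4), 8.48 ± 0.46 (SD, n = 5) and 8.49 ± 0.25 (SD, n = 6), within one another's spread, and isoflurane Pcp2-low stood above them.

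**Figure D2:**
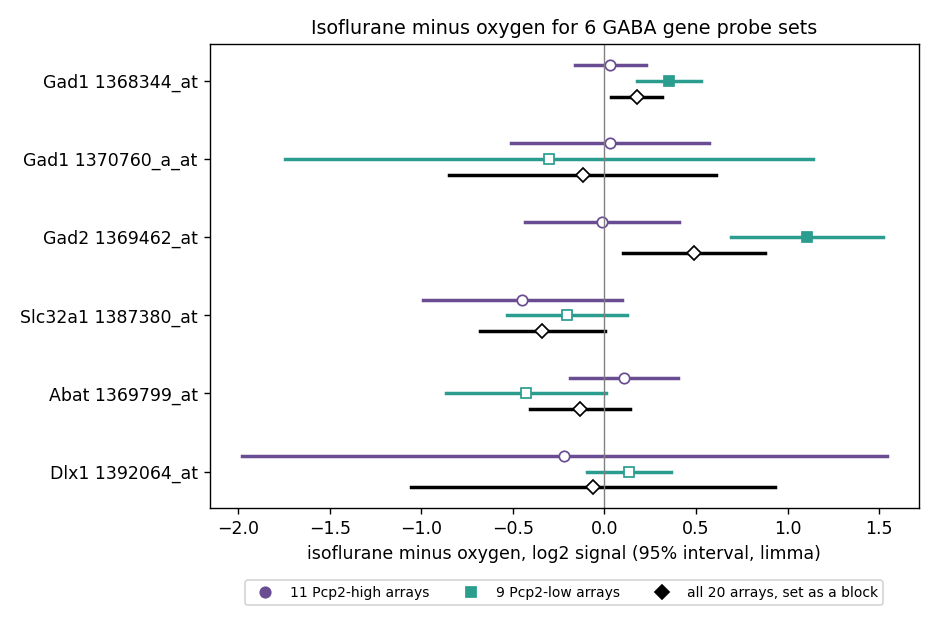
Isoflurane minus oxygen in log2 signal (horizontal axis) for the 6 tested GABA gene probe sets, from limma, with 95% intervals. Purple circles are the 11 Pcp2-high arrays, green squares the 9 Pcp2-low arrays and black diamonds all 20 arrays with the set as a block, and filled symbols have an adjusted p under 0.05. The filled symbols are Gad2 at 1.10 and Gad1 1368344_at at 0.35, both among Pcp2-low arrays, and the Gad1 value was 0.14 and not called once arrays were centred on their medians.

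The vesicular transporter gene Slc32a1 was not called in any comparison of the gases. It gave 9.85, 10.29, 9.88 and 10.51 on oxygen 1 to 4 and 9.79, 9.81, 9.94, 9.95 and 10.16 on isoflurane 2, 4, 5, 6 and 10. The ranges overlapped, and oxygen 2 and 4 were the high arrays. The difference was -0.21 ± 0.15 SE (limma, adjusted p = 0.350, 95% interval -0.53 to 0.12). On Pcp2-high arrays Slc32a1 gave 10.14, 10.15, 10.29, 10.12 and 11.05 after isoflurane and 10.07 to 11.49 with a median of 10.71 after oxygen, a difference of -0.45 ± 0.25 SE (limma, adjusted p = 0.445). With the set as a block it was -0.34 ± 0.16 SE (limma, adjusted p = 0.188), and with the GAPDH ratio as a covariate -0.03. The Pcp2-high mean was above the Pcp2-low mean by 0.67 in oxygen and by 0.42 in isoflurane, with overlapping ranges in both.

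High Slc32a1 went with low Gad2 on the Pcp2-high arrays and the oxygen Pcp2-low arrays but not on the isoflurane Pcp2-low arrays, a pattern chosen after the values were seen. Among Pcp2-high arrays the hexokinase 3'/5' ratio was 1.95 to 2.05 on isoflurane 9 and oxygen 5, 7 and 10 and 0.84 to 1.46 on the other 7. On those 4 arrays Gad2 was 7.66 to 8.33 and Slc32a1 was 10.96 to 11.49. On the other 7 Gad2 was 8.59 to 8.84 and Slc32a1 was 10.07 to 10.47, so neither gene overlapped between them. The share of all probe sets that separate these arrays was not counted, so the split is not shown to be particular to these genes. Beta-actin ratios were 1.40 to 1.58 for the 4 arrays and 1.09 to 1.36 for the 7, and GAPDH ratios 0.28 to 0.46 and 0.12 to 0.31. Gad1 1368344_at, at 13.12 to 13.39 and 12.92 to 13.43, and Abat 1369799_at, at 9.09 to 9.28 and 8.70 to 9.27, overlapped between the same arrays.

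The same order held on the oxygen Pcp2-low arrays. From oxygen 1 through 3 and 2 to 4, Gad2 went 8.61, 8.51, 8.15 and 7.72, Slc32a1 went 9.85, 9.88, 10.29 and 10.51, and the hexokinase ratio went 1.25, 1.51, 2.31 and 2.47. The array with the highest ratio thus had the lowest Gad2 and the highest Slc32a1 of the 4. Among themselves the isoflurane Pcp2-low arrays did not follow that order. The lowest and highest Slc32a1 values, on isoflurane 2 and 10, went with Gad2 values of 9.32 and 9.65. Isoflurane 2, 4, 5 and 6 had hexokinase ratios of -0.75 to -0.27, below every oxygen Pcp2-low array. Their Gad2 was 9.04 to 9.42, above those oxygen arrays, and their Slc32a1 was 9.79 to 9.95, at the lower end of the oxygen range. Isoflurane 10 had a ratio of 1.27, Gad2 at 9.65 and Slc32a1 at 10.16. The part of RNA quality in the Gad2 and Slc32a1 values was tested only through the GAPDH covariate given above.

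**Figure D3:**
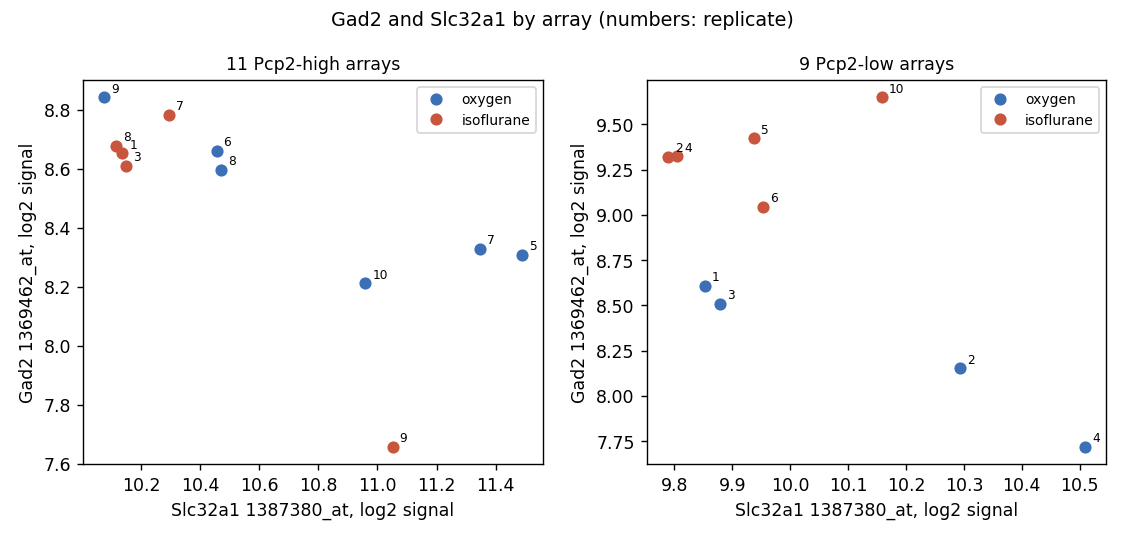
Log2 signal of Gad2 (vertical axis) against Slc32a1 (horizontal axis) on the 11 Pcp2-high arrays (left) and the 9 Pcp2-low arrays (right), with replicate numbers beside the points, oxygen in blue and isoflurane in red. On the left, isoflurane 9 and oxygen 5, 7 and 10 lie to the lower right, with Slc32a1 from 10.96 and Gad2 up to 8.33. On the right, all 5 isoflurane arrays lie above the oxygen arrays.

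Slc6a11, the GABA transporter found mainly on astrocytes, was dim and did not pass the filter. It gave 6.35, 2.60, 5.61 and 5.71 on oxygen 1 to 4 and 4.81, 5.17, 3.97, 4.22 and 5.82 on isoflurane 2, 4, 5, 6 and 10. On Pcp2-high arrays it gave 4.88, 5.15, 5.88, 5.32 and 5.27 after isoflurane and 5.20 to 6.79 with a median of 5.50 after oxygen. The gases overlapped in both sets, and the sets overlapped in both gases. In a fit of all 31042 probe sets without the filter it was not called. The difference there was -0.27 ± 0.72 SE among Pcp2-low arrays (limma, adjusted p = 0.846) and -0.39 ± 0.32 SE among Pcp2-high arrays (adjusted p = 0.685).

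The 3 probe sets of Abat, the gene of GABA transaminase, went in different directions. The bright one, 1369799_at, gave 8.69, 8.64, 8.72 and 9.10 on oxygen 1 to 4 and 8.24, 8.16, 8.13, 8.21 and 9.06 on isoflurane 2, 4, 5, 6 and 10. Isoflurane 2, 4, 5 and 6 lay below all 4 oxygen arrays, while isoflurane 10 lay among them. Of all tested probe sets, 16.7% were lower on those 4 isoflurane arrays without overlap. The difference over the 9 arrays was -0.43 ± 0.20 SE and was not called (limma, adjusted p = 0.152). It was -0.60 and called without isoflurane 10 (limma, adjusted p = 0.00534), in a fit that called 6266 of 18625 probe sets. Without isoflurane 2, 4, 5 and 6, which leaves 1 isoflurane array, it was 0.27, with the opposite sign.

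Abat 1375321_at and 1391365_at were below the filter and went the other way among Pcp2-low arrays. The first gave 5.75, 5.65, 5.53 and 5.62 on oxygen 1 to 4 and 7.09, 7.05, 6.92, 7.64 and 6.07 on isoflurane 2, 4, 5, 6 and 10. Every isoflurane array was above every oxygen array, as for 6.7% of the tested probe sets, which leave 1375321_at out. The second gave 2.53, 2.73, 2.20 and 2.93 on the same oxygen arrays and 6.77, 6.17, 6.21, 6.91 and 2.17 on the same isoflurane arrays, so isoflurane 10 fell below all 4 oxygen arrays. Without the filter the differences were 1.32 ± 0.31 SE (limma, adjusted p = 0.0217) and 3.05 ± 0.86 SE (adjusted p = 0.0407), in a fit that called 12.5% of probe sets. The interaction was called for 1375321_at, at 1.81 ± 0.43 SE (limma, adjusted p = 0.0160), as for 7.17% of probe sets, and not for 1391365_at (adjusted p = 0.156). Without isoflurane 2, 4, 5 and 6 the differences were 0.44 (limma, adjusted p = 0.940) and -0.42 (adjusted p = 0.957), and the interaction of 1375321_at was 0.93 (adjusted p = 0.998). These 3 probe sets of 1 gene therefore give no common direction, and the dim ones are near the lower end of the signal range.

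On Pcp2-high arrays Abat 1369799_at gave 8.72, 9.03, 9.27, 9.10 and 9.17 after isoflurane and 8.70 to 9.28 with a median of 8.94 after oxygen, a difference of 0.10 ± 0.14 SE (limma, adjusted p = 0.731). Abat 1375321_at ran from 5.12 to 6.58 and from 5.90 to 6.76, and 1391365_at from 2.29 to 6.30 and from 2.01 to 5.79, both overlapping. Between the sets, the bright probe set was 0.17 higher on Pcp2-high arrays in oxygen and 0.70 higher in isoflurane, and the ranges overlapped in both. In oxygen 1375321_at was higher on Pcp2-high arrays without overlap, at 5.90 to 6.76 against 5.53 to 5.75. Without the filter 14% of all genes were. In isoflurane its ranges overlapped.

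Dlx1, a homeobox gene that specifies forebrain interneurons, was lower on Pcp2-high than on Pcp2-low arrays. It gave 8.69, 8.64, 8.84 and 8.87 on oxygen 1 to 4 and 8.93, 8.84, 8.97, 8.81 and 8.91 on isoflurane 2, 4, 5, 6 and 10. On Pcp2-high arrays it gave 2.98, 6.30, 5.14, 5.27 and 6.59 after isoflurane and 2.22 to 6.91 with a median of 5.71 after oxygen. All 9 Pcp2-low arrays lay above all 11 Pcp2-high arrays, as 6.49% of all 31042 probe sets did, without the filter that Dlx1 passed through the arrays where it is high. Pcp2-high minus Pcp2-low was -3.28 in oxygen and -3.64 in isoflurane. The Pcp2-high values are dim and cannot be told from background, so these differences give no fold and the Pcp2-high values no order. Spread differed too, with SDs of 0.11 (n = 4) and 0.07 (n = 5) on Pcp2-low arrays and 1.72 (n = 6) and 1.42 (n = 5) on Pcp2-high arrays, oxygen first.

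Isoflurane and oxygen overlapped for Dlx1 in both sets. The difference was 0.13 ± 0.10 SE among Pcp2-low arrays (limma, adjusted p = 0.386, 95% interval -0.10 to 0.36), turning to -0.08 when arrays were centred on their medians. It was -0.22 ± 0.82 SE among Pcp2-high arrays (adjusted p = 0.911), where the interval ran from -1.98 to 1.54. The interval was thus narrow only among the Pcp2-low arrays, where Gad2 was higher after isoflurane.

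**Figure D4:**
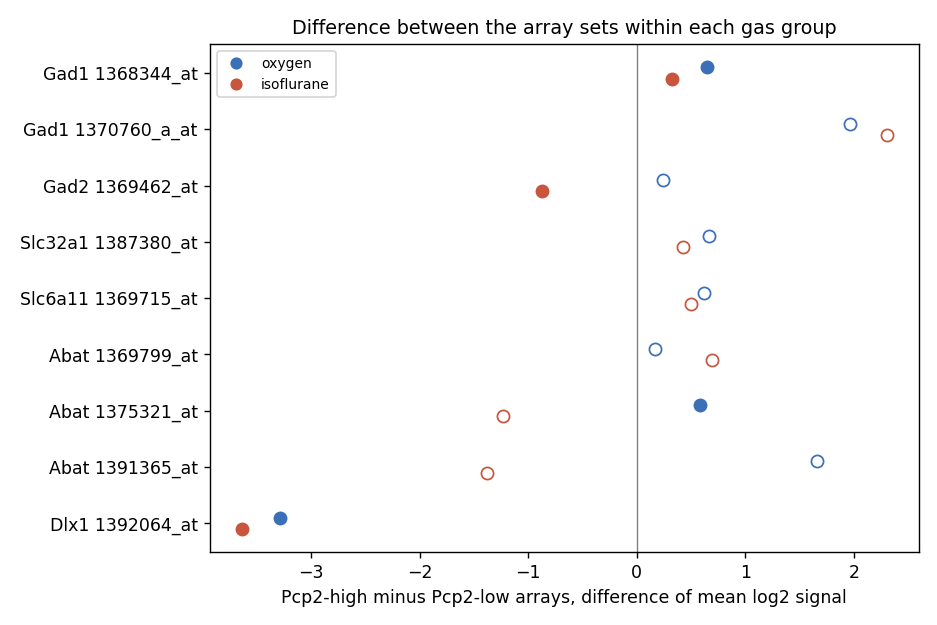
Difference of mean log2 signal between Pcp2-high and Pcp2-low arrays (horizontal axis) for the 9 GABA gene probe sets, for oxygen arrays in blue and isoflurane arrays in red. Filled points mark probe sets whose 2 sets did not overlap in that gas. Dlx1 lies at -3.28 and -3.64, Gad1 1368344_at at 0.65 and 0.33, and Gad2 at 0.24 in oxygen and -0.88 in isoflurane.

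Other genes of GABA metabolism and its supply were listed, and 12 of 17 were on the array and tested by the brightest probe set of each. With the set as a block 0 rose and 1 fell, where 192 of 10315 genes rose and 605 fell. Their median change was -0.10, against -0.02 over all genes. Glud1, the mitochondrial glutamate dehydrogenase, fell by 0.25 on the log2 scale (-0.25 ± 0.07 SE, limma, adjusted p = 0.0409). Among Pcp2-low arrays 1 rose and 1 fell, where 642 genes rose and 932 fell, and the median was -0.33 against -0.05. Slc38a1, a glutamine transporter that supplies precursor to interneurons, rose by 0.53 ± 0.12 SE there (limma, adjusted p = 0.0140), from 10.77 to 11.07 on the oxygen arrays to 11.15 to 11.64 on the isoflurane arrays. Its interaction was called too, at 0.58 (adjusted p = 0.0115), and Glud1 fell by 0.42 (-0.42 ± 0.10 SE, adjusted p = 0.0202). Without isoflurane 2, 4, 5 and 6 none of these was called by limma. Slc38a1 was then at 0.21 (adjusted p = 0.902) with an interaction of 0.26 (adjusted p = 1.00), and Glud1 at -0.17 (adjusted p = 0.916) and with the block at -0.13 (adjusted p = 0.392).

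Slc6a13, a transporter of GABA in the meninges and vessels, was not called among Pcp2-low arrays (-0.61, limma, adjusted p = 0.243). Neither was Aldh5a1, which completes GABA breakdown after Abat (-0.45, adjusted p = 0.112). Maob, a monoamine oxidase of astrocytes on a minor route to GABA, just missed the threshold at -0.33 (adjusted p = 0.0507). Glul, the glutamine synthetase of astrocytes, was at 0.07 (adjusted p = 0.611). These 4 genes were picked as examples of their step after their values were seen.

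Of 17 other transcription factors of interneurons 11 were on the array and 8 were tested, and 0 were called with the set as a block, on Pcp2-low arrays, on Pcp2-high arrays or in the interaction, by limma. Over all genes 7.73%, 15.3%, 0% and 7.1% were called in the same order, so a count of 0 among 8 is near the background. Their median change among Pcp2-low arrays was 0.14, against -0.05 over all genes. Prox1, a factor of interneurons from the caudal ganglionic eminence, had the lowest p, at 0.52 (adjusted p = 0.105) there and 0.31 (adjusted p = 0.101) with the block. Dlx5, a relative of Dlx1 that did not pass the filter, was at 7.17 to 7.63 on oxygen Pcp2-low and 7.03 to 7.85 on isoflurane Pcp2-low arrays, and at 4.51 to 6.35 and 4.51 to 6.08 on Pcp2-high arrays, an array-set difference in the direction of Dlx1. The factors on the array went both ways between the sets. In oxygen, 4 of the 11 were lower on Pcp2-high arrays without overlap, and 3 were higher, where 14.1% and 14% of all genes were, without the filter. The lower ones were Dlx5, Npas1, Satb1 and Sox6, a factor of interneurons from the medial eminence, at 7.77 to 8.42 against 8.76 to 8.95. The higher ones were Maf (11.57 to 11.98 against 10.03 to 10.59), Prox1 (9.41 to 9.85 against 8.14 to 8.76) and Etv1 (12.52 to 13.26 against 11.20 to 11.79).

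Markers of cortical interneuron subtypes were called about as often as all genes among Pcp2-low arrays. Of 25, 23 were on the array and 15 were tested. With the block 0 were called, and among Pcp2-low arrays 1 rose and 1 fell, 13.3% against 15.3% of all genes, with a median of 0.07. Kcnc1, a potassium channel of fast-spiking cells, rose by 0.66 ± 0.14 SE (limma, adjusted p = 0.0130) and its interaction was 1.02 (adjusted p = 0.00657). Sst, the neuropeptide somatostatin, fell by 0.53 (-0.53 ± 0.15 SE, adjusted p = 0.0286) and with the block was at -0.27 (adjusted p = 0.155). The 4 oxygen arrays gave 11.76 to 11.88, isoflurane 2, 4, 5 and 6 gave 10.91 to 11.38, and isoflurane 10 gave 11.74. Without isoflurane 2, 4, 5 and 6 neither was called, Kcnc1 being at 0.29 (limma, adjusted p = 0.902) with an interaction of 0.65 (adjusted p = 1.00), and Sst at -0.079 (adjusted p = 0.957). Over all Pcp2-low arrays Vip was at 0.02 (limma, adjusted p = 0.946), Npy at 0.24 (adjusted p = 0.208) and Pvalb at -0.03 (adjusted p = 0.925). All of them are peptides or calcium-binding proteins that mark other interneuron classes. Calb2, calretinin, had the largest change there of the 15 tested, at -1.19, and was not called (limma, adjusted p = 0.316). It was 4.11 to 7.97 on isoflurane 2, 4, 5 and 6, below the oxygen range of 8.06 to 8.85. Isoflurane 10 lay above that range.

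Across the sets these markers divided. In oxygen, 12 of the 23 on the array were lower on Pcp2-high arrays without overlap and 6 were higher, against the same 14.1% and 14% of all genes. Sst (9.13 to 10.03 on oxygen Pcp2-high against 11.76 to 11.88), Vip (5.54 to 8.22 against 10.61 to 11.02) and Cck, a neuropeptide (7.02 to 10.98 against 12.74 to 13.50), were lower on Pcp2-high arrays, as Dlx1 was. Pvalb (13.23 to 13.59 against 10.75 to 11.03), the secreted protein gene Reln (12.77 to 13.39 against 10.49 to 10.62) and Calb2, calretinin (12.45 to 12.87 against 8.06 to 8.85), were higher there, as Gad1 was. Purkinje or granule cells of the cerebellum also express Pvalb, Reln and Calb2.

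Summed signals of the marker lists are given beside the Gad1 and Gad2 results among Pcp2-low arrays. The 23 interneuron markers summed to 36452 to 42576 on the oxygen arrays, 37989 to 42918 on isoflurane 2, 4, 5 and 6 and 43367 on isoflurane 10. The 11 striatal neuron markers, of GABA-producing projection neurons beneath the cortex, summed to 16137 to 25157, 15879 to 19414 and 27309. The 12 markers of cerebellar interneurons summed to 1747 to 2255, 1379 to 2261 and 2346, and the 13 Purkinje cell markers to 34681 to 42063, 37397 to 44386 and 46331. Each of these sums was highest on isoflurane 10, and the oxygen range overlapped that of the other 4 isoflurane arrays in each list. For the 15 markers of cortical excitatory neurons these ranges did not overlap. They summed to 45515 to 49825 on the oxygen arrays, 52436 to 60328 on isoflurane 2, 4, 5 and 6 and 39252 on isoflurane 10. The 11 granule cell markers summed to 3348 to 4933, 2916 to 3582 and 7203. There and in the astrocyte, oligodendrocyte, microglia, endothelial and choroid plexus lists the oxygen range overlapped that of isoflurane 2, 4, 5 and 6. No marker of the first 4 lists was under a signal of 1 on any array. The part of these cell types in the Gad1 and Gad2 differences was not tested.

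For each gene, the 3 genes closest in pattern were sought by Pearson r over the 20 arrays after centring values on the mean of each array set. These are descriptions of arrays that share RNA quality and processing, with no test. Closest to Gad2 were Cdk7, a kinase of transcription (r = 0.90), Wac-ps1 (r = 0.88) and the zinc finger gene Zfp354c (r = 0.88). Closest to Gad1 were Trim36 (r = 0.85), Ankrd27 (r = 0.84) and the Arp complex subunit Arpc5l (r = 0.84). Slc32a1 was closest to Atp6v0a1, a subunit of the proton pump that energises vesicle loading (r = 0.90), Phf2 (r = 0.89) and Caskin1 (r = 0.89). Abat was closest to the phospholipase gene Plcd4 (r = 0.90), Gabarapl1 (r = 0.89) and the mitochondrial channel gene Vdac1 (r = 0.89), and Slc6a11 to Bloc1s6 (r = 0.81), Slc41a3 (r = 0.78) and Dus3l (r = 0.75).

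Dlx1 was closest to Gabra5, a GABA-A receptor subunit of forebrain neurons (r = 0.90), Syt17 (r = 0.83) and Tmem179 (r = 0.82). For these the likeness came from the 11 Pcp2-high arrays, where r was 0.92, 0.87 and 0.87 but Dlx1 cannot be told from background. Those r values therefore do not show that any of the 3 genes follows Dlx1. Over the 9 Pcp2-low arrays, where Dlx1 spanned only 8.64 to 8.97, r was -0.23, -0.10 and -0.29. For the first genes of Gad2, Gad1 and Abat the values over both sets were closer, at 0.84 and 0.94 for Cdk7, 0.69 and 0.94 for Trim36 and 0.94 and 0.90 for Plcd4, Pcp2-high first. For the genes closest to Slc6a11, itself below the filter, the likeness was greater on the 9 Pcp2-low arrays, where r was 0.94, 0.91 and 0.93, than on the 11 Pcp2-high arrays, where it was 0.57, 0.36 and 0.25. No member gene was among the 3 closest of another.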

How the data were processed

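The deposited table holds linear intensity values for 31099 probe sets on 20 arrays. The submitters' processing notes name MAS5 and Affymetrix Expression Console, whose versions are not given in the sources used here. Total RNA had been labelled as biotinylated cRNA, per the labels' protocols. The table includes 57 controls.

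All signals were floored at 1, which changed 2015 values, and put on the log2 scale without renormalizing. Array medians ran from 7.20 to 7.57. Detection calls were not used here, so dim signal cannot be told from background. Genes were named from the platform annotation, with symbols updated through RefSeq (GRCr8). That annotation gives 20826 probe sets a single symbol, 436 more than one and 9780 no symbol. Of the 7 genes, 6 matched a RefSeq promoter window of 250 bases (Abat did not), and 3 are printed.

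Two-sided tests used lmFit and trended eBayes of limma 3.58.1, under R 4.3.3, on 18625 probe sets with a mean above the 40th percentile, and were tested on simulated data. Figures used Python 3.11.15, numpy 2.4.6, pandas 2.3.3 and matplotlib 3.10.9. No 2 arrays were alike (highest correlation 0.982). Same-numbered arrays of the 2 gases had residual correlations of -0.26 to 0.23, with 2 of 10 pairs over 0.1, so the numbers were not taken as pairs.

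The genes, marker lists and array sets were chosen with earlier results of these data known, so nothing here is independent of those results. Genes named from each list were up to 4 with the lowest adjusted p among those called with the block and among Pcp2-low arrays, otherwise the 1 with the lowest p, besides genes said to be examples and the interneuron markers compared between sets, which were chosen after their values were seen. Alternatives were quantile normalization, centring on array medians, log2 of signal plus 16, no filter, eBayes without the trend, no set term, the replicate number as a block, 1 fit for both sets, and each array left out. Fits without isoflurane 2, 4, 5 and 6 were planned for the blocked comparison and added after seeing the data for the others, as was the GAPDH ratio covariate.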

Additional observations from a re-analysis of the deposited data

Results flagged for a closer look

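In 7 of 36 groups of 4 to 6 arrays, taken by probe set, gas and array set, 1 array lay far from the rest by Dixon's criterion, which chance meets in about 1 of 20 groups. Isoflurane 9 was far from its group in 2 genes, with Gad2 at 7.66, where the other 4 Pcp2-high isoflurane arrays ran from 8.61 to 8.78, and Slc32a1 at 11.05, where they ran from 10.12 to 10.29. Isoflurane 7 had the highest Gad1 1368344_at value, 13.43, against 13.13 to 13.20.

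Isoflurane 10 was far from isoflurane 2, 4, 5 and 6 in 2 Abat probe sets, in opposite directions. Abat 1369799_at was 9.06, against 8.13 to 8.24, and Abat 1391365_at was 2.17, against 6.17 to 6.91. Among oxygen Pcp2-high arrays, oxygen 5 had a Slc6a11 value of 6.79, against 5.20 to 5.75, and oxygen 7 a Dlx1 value of 2.22, against 5.46 to 6.91.

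The isoflurane effect on Gad2 differed between the array sets by 1.12 in the limma interaction test (adjusted p = 0.0199). All 5 Pcp2-low isoflurane arrays were above all 4 oxygen arrays, and the Pcp2-high arrays of the gases overlapped.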

How the results depend on the processing

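The counts of probe sets called changed with the settings. With the set as a block the count was 1372 and became 74 without the set term, 29 with the replicate number as a block, 3 with the GAPDH covariate and 0 without isoflurane 2, 4, 5 and 6 (3016 at an unadjusted p under 0.05). Leaving out 1 array gave 480 (without oxygen 4) to 2938 (without isoflurane 9). Among Pcp2-low arrays the count of 3469 became 5243 with arrays centred on their medians, 0 with the covariate and 0 without the 4 arrays, and leaving out 1 array gave 1606 to 6266 (without isoflurane 10). On Pcp2-high arrays it was 0, or 1086 without isoflurane 9. The interaction count of 1897 became 3899 when centred and 13 without the 4 arrays, with 1109 to 4303 (without isoflurane 10) when 1 array was left out. Centring lowered the share of calls that were higher from 35.0% to 20.6% with the block, from 60.2% to 28.0% among Pcp2-low arrays (52.3% after quantile normalization, within 10 points) and from 74.7% to 27.2% in the interaction (63.5% after quantile normalization), and the median change by 0.21 and 0.24 in the last 2.

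Across the alternatives the 6 tested probe sets kept direction and side of the threshold in 494 values, changed sign in 37, lost a call in 7 and gained one in 8. Most values were not called to begin with and had no call to lose, so these counts do not show that the calls are firm. The losses fell on the values called in the main fits: Gad2 and Gad1 1368344_at among Pcp2-low arrays and the Gad2 interaction. Gad2 among Pcp2-low arrays stayed called in 9 of 9 fits with 1 array left out (0.93 to 1.22), as did Gad1 1368344_at (0.32 to 0.39), and the Gad2 interaction in 19 of 20 (0.92 to 1.24; adjusted p = 0.0512 without oxygen 4). The Gad1 interaction was called after quantile normalization (0.50, adjusted p = 0.0410), and Abat 1369799_at when centred, at -0.64 among Pcp2-low arrays (adjusted p = 0.0432) and -0.78 in the interaction (adjusted p = 0.0438). With the replicate block Gad2 was 0.47 (adjusted p = 0.240) and Gad1 1368344_at 0.18 (adjusted p = 0.172), and no GABA gene's call changed.

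Changes of sign were in values not called. Without isoflurane 2, 4, 5 and 6, Abat 1369799_at was 0.14 with the block, 0.27 among Pcp2-low arrays and 0.17 in the interaction, Gad1 1370760_a_at was 0.36, 1.50 and 1.47 in the same order, and Slc32a1 was 0.025 among Pcp2-low arrays. With the covariate Slc32a1 was 0.047 there and Gad1 1370760_a_at -0.14 on Pcp2-high arrays. On Pcp2-high arrays Gad2 was 0.024 after quantile normalization and 0.019 centred, and Gad1 1368344_at -0.11 after quantile normalization. Dlx1 was 0.29 without the set term and -0.076 centred among Pcp2-low arrays. With 1 array left out, Gad1 1370760_a_at ran from -0.30 to 0.10 with the block, -0.13 to 0.21 on Pcp2-high arrays, -0.75 to 0.20 on Pcp2-low arrays and -0.79 to 0.17 in the interaction. Dlx1 ran from -0.40 to 0.25 with the block, -0.87 to 0.35 on Pcp2-high arrays and -0.22 to 1.01 in the interaction. On Pcp2-high arrays Gad1 1368344_at ran from -0.022 to 0.072 and Gad2 from -0.092 to 0.189. The cause of these changes was not tested. With 1 isoflurane array left among Pcp2-low arrays, or signal near the lower end as for Slc6a11, these arrays cannot show a difference of the sizes seen.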

Other observations

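Markers of other cell types were counted among the Pcp2-low arrays, where 15.3% of all genes were called. Of 14 tested markers of cortical excitatory neurons, 2 rose and 2 fell. Slc17a7, the vesicular glutamate transporter, fell by 0.93 (-0.93 ± 0.17 SE, limma, adjusted p = 0.00965), and Neurod6 fell by 0.77 (adjusted p = 0.00709). Rorb, a layer 4 factor, rose by 1.67 (adjusted p = 0.00816) and Foxp2, a deep-layer factor, by 0.63 (adjusted p = 0.0343). Of 12 astrocyte markers 3 fell, Gfap by 0.78 (adjusted p = 0.0132), Atp1b2 by 0.54 (adjusted p = 0.0135) and Aldh1l1 by 0.51 (adjusted p = 0.0441), and of 10 oligodendrocyte markers 2 fell, Sox10 by 0.91 (adjusted p = 0.00965) and Fa2h by 0.66 (adjusted p = 0.0131). Of 8 microglia markers 2 fell, P2ry12 by 0.62 (adjusted p = 0.0289) and Csf1r by 0.56 (adjusted p = 0.0221).

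Of 13 tested Purkinje cell markers 1 rose, Plcb4 by 0.57 (adjusted p = 0.00861), and 1 fell, Homer3 by 1.05 (adjusted p = 0.0215). Of 6 choroid plexus markers 1 fell, Ttr by 2.97 (adjusted p = 0.0179). None of 6 cerebellar interneuron, 10 granule cell, 10 striatal neuron or 9 endothelial markers was called among Pcp2-low arrays by limma. Their lowest p-values belonged to Grm2 (-0.47, adjusted p = 0.0582), Neurod2 (0.66, adjusted p = 0.0890), Ppp1r1b (-0.49, adjusted p = 0.151) and Abcb1a (0.60, adjusted p = 0.0620). Without isoflurane 2, 4, 5 and 6, no marker named here was called by limma (adjusted p of 0.902 or more). Slc17a7 was then at -0.78, Neurod6 at -0.65, Rorb at 0.94, Foxp2 at 0.85, Gfap at -0.26, Atp1b2 at -0.51, Aldh1l1 at -0.036, Sox10 at -0.73, Fa2h at -0.19, P2ry12 at -0.56, Csf1r at -0.25, Plcb4 at 0.47, Homer3 at -0.40 and Ttr at -1.77.

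With the set as a block, 1 marker fell in each of 6 lists and 2 fell among oligodendrocyte markers. They were Homer3 (-0.59, adjusted p = 0.0411), Grm2 (-0.39, adjusted p = 0.0438), Grin2c (-0.47, adjusted p = 0.0280), Slc17a7 (-0.70, adjusted p = 0.0274), Atp1b2 (-0.38, adjusted p = 0.00985), Csf1r (-0.43, adjusted p = 0.0346), Fa2h (-0.62, adjusted p = 0.00210) and Sox10 (-0.70, adjusted p = 0.0179). None of the striatal neuron, endothelial and choroid plexus markers was called, the lowest p-values belonging to Ppp1r1b (-0.31, adjusted p = 0.151), Nostrin (0.45, adjusted p = 0.0631) and Ttr (-1.49, adjusted p = 0.213). Over all genes 7.73% were called. Without isoflurane 2, 4, 5 and 6 none of the 8 was called, at adjusted p from 0.112 (Fa2h, -0.50) to 0.329 (Homer3, -0.25), with Grm2 at -0.31, Grin2c at -0.62, Slc17a7 at -0.57, Atp1b2 at -0.31, Csf1r at -0.31 and Sox10 at -0.57.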
